A study of Mus musculus with 8 samples.

Results

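Ly6c2, Ccr2, Plac8, Vcan, Chi3l3, Ifitm6, Crip1 and Lyz2 are 8 genes that mark classical monocytes, the blood monocytes that enter inflamed tissue and tumors. They were taken by name, as 8 of the 24787 genes in the count tables, and all 8 were found in every class of myeloid cell examined. Their counts were read in single cells of subcutaneous MC38 tumors, a mouse colon carcinoma line implanted in mice, collected 24 hours after an injection. Of 8 tumors, 3 came from mice given saline, 3 from mice given free R848 and 2 from mice given medium R848-BPDs. R848 (resiquimod) is a small-molecule agonist of the RNA sensors TLR7 and TLR8. An R848-BPD is a bottlebrush polymer that carries R848 as a prodrug, and "medium" is the rate at which its linker lets the drug go. All 3 groups carried the same tumor line and are labeled by the injection and a replicate number, with no batch given. Each tumor was enriched for CD45+ (leukocyte) cells before it was loaded on a Seq-Well array. Because of this sort, shares below are shares of cells of one gated class and not of the tumor, and the dose given to these mice is not given in the sources used here.

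Classical monocytes leave the bone marrow and enter tissue when the chemokine receptor encoded by Ccr2 senses its ligands Ccl2, Ccl7 and Ccl12. In tissue they lose Ly6c2 and Ccr2 as they mature into macrophages, which express C1qa, C1qb and C1qc, the subunits of complement C1q. Many macrophages of transplanted mouse tumors come from such monocytes. The 8 genes differ in their roles. Ccr2 is the receptor that brings the cells in, Ly6c2 encodes the surface antigen by which the cells are sorted, and Vcan encodes versican, a matrix proteoglycan. Lyz2 encodes lysozyme M, Chi3l3 (now Chil3) a secreted chitinase-like protein also called Ym1, Ifitm6 a small interferon-induced transmembrane protein of myeloid cells, Crip1 a LIM domain protein, and Plac8 a small cysteine-rich protein abundant in myeloid cells.

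Cells were assigned to classes by marker genes that include none of the 8, and classes are called "like" the type whose markers they carry. Of 9886 cells kept, 5576 were monocyte/macrophage-like (513 to 980 per tumor), 613 dendritic cell (DC)-like and 103 neutrophil-like. Monocyte/macrophage-like cells were split at 10 UMIs (unique molecular identifiers, counted transcripts) of the 3 C1q genes per 10000. This gave 1559 C1q-low cells (78 to 343 per tumor), where less mature cells would fall, and 4017 C1q-high cells. The cut passes through a continuous range, with 322 cells within 0.5 to 2 times of it, and 1209 cells had no C1q UMI at all. Levels are given as CPM, the counts of a gene scaled to the total UMIs summed over the cells of a class in a tumor. Depth ranged from 5867590 to 12422614 UMIs per tumor. Saline replicate 2 stood apart, with 78 C1q-low cells, 7.96% of its monocyte/macrophage-like cells, against 43.3% and 43.6% in the other 2 saline tumors, so counts of calls that include saline are also given without it. In all, 23 barcodes were found in more than 1 tumor, and leaving out the 59 kept cells that carry them changed no count of members called.

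The 8 genes lie on 8 chromosomes of mm10 (GRCm38). Ccr2 is on the plus strand at chr9:124101950-124113557 and Crip1 on the plus strand at chr12:113146316-113153879. The others are on the minus strand: Ly6c2 at chr15:75108158-75111970, Plac8 at chr5:100553725-100572245, Vcan at chr13:89655312-89742509, Chi3l3 at chr3:106147554-106167564, Ifitm6 at chr7:141015699-141017924 and Lyz2 at chr10:117277331-117282321. All are protein-coding genes. Of these, 3 have a near copy in the genome, so reads could have been shared between copies: the transcripts of Ly6c2 and Ly6c1 were 95.0% identical, those of Chi3l3 and Chi3l4 94.2% and those of Lyz2 and Lyz1 92.0%. In monocyte/macrophage-like cells the copies held few of the UMIs, with 337 for Ly6c1 against 27485 for Ly6c2, 9 for Chi3l4 against 3630 for Chi3l3, and 1043 for Lyz1 against 147448 for Lyz2.

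The promoters of 3 genes are shown because Ccr2 and Ly6c2 are the genes by which classical monocytes are defined and Chi3l3 had the largest fall of the 8 in C1q-low cells after medium R848-BPDs against free R848. Each runs from 250 bases before the RefSeq transcription start to 50 bases after it (GRCm38.p6), 5′ to 3′ on the strand of the gene. The windows are chr15:75111922-75112221 for Ly6c2, chr9:124101933-124102232 for Ccr2 and chr3:106167515-106167814 for Chi3l3. Capitals mark matches, on either strand, to the core AGGAAG bound by PU.1 or to TTNNGNAA, a consensus of C/EBP factors, both regulators of myeloid genes. In Chi3l3 a PU.1 core at −59 to −54 from the start runs into a C/EBP match at −53 to −46.
Ly6c2: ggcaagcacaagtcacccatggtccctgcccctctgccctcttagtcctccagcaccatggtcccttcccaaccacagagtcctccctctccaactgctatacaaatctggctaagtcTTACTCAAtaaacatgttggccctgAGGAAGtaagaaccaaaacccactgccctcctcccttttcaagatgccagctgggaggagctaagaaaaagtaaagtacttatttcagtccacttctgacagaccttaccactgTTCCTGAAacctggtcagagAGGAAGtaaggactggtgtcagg
Ccr2: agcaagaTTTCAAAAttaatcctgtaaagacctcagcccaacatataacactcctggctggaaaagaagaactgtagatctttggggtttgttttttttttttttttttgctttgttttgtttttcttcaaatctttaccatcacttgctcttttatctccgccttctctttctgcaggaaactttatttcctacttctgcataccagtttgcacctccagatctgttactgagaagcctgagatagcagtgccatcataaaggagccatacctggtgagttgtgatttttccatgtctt
Chi3l3: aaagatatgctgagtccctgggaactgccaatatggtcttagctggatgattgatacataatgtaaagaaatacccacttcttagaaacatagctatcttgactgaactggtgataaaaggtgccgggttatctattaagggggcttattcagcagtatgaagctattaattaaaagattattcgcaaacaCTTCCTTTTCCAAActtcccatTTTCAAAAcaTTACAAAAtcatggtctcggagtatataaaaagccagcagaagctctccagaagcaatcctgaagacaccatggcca

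The promoter of Ly6c2 held 2 matches to each motif, that of Ccr2 1 C/EBP match and no PU.1 core, and that of Chi3l3 1 PU.1 core and 3 C/EBP matches. Over the 8 genes, 5 promoters held the PU.1 core (Ly6c2, Vcan, Chi3l3, Ifitm6 and Lyz2) and 6 the C/EBP consensus (all but Vcan and Crip1). Among 32544 promoters of the same length, 35.1% held the first and 40.7% the second. The core of the interferon-stimulated response element, which is GAAA repeated after a gap of 2 bases, was in none of the 8 windows and in 3.45% of all. A match describes the letters only.

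The classes in which each gene was found are described first, with no test, because the classes were drawn from markers of the same cells. Lyz2 was high in 4 of the myeloid classes: its mean level over tumors was 5122 ± 2222 CPM (SD, n = 8) in C1q-low and 4417 ± 2522 CPM in C1q-high cells, 3385 CPM in neutrophil-like and 1121 CPM in DC-like cells. Its lowest DC-like tumor was above every tumor of the next class, MC38-like tumor cells, at a mean of 110.3 CPM. Osteoclast-like cells, also myeloid, had 100.6 CPM over 3 tumors. Ly6c2 was highest in C1q-low cells at 1851 ± 830 CPM (SD, n = 8), followed by neutrophil-like (1005 CPM), T-like (1003 CPM), C1q-high (555 CPM) and DC-like cells (480.1 CPM), and neighbors in this order overlapped.

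Ccr2 was not highest in monocyte/macrophage-like cells. Its mean was 861 ± 178 CPM in NK-like cells (SD, n = 8) and 544 ± 241 CPM in C1q-low cells, whose tumors overlapped, then 325 CPM in C1q-high, 266 CPM in neutrophil-like and, below DC-like cells, 119.7 CPM in T-like cells. Every T-like value was above every MC38-like value (mean 15.2 CPM). Plac8 was spread more widely, with 1973 CPM in C1q-low, 1563 CPM in neutrophil-like, 1374 CPM in fibroblast-like, 1075 CPM in T-like and 496 CPM in C1q-high cells.

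Vcan, Chi3l3 and Ifitm6 differed most in level between C1q-low and C1q-high cells. Vcan averaged 247 CPM in C1q-low and 29.6 CPM in C1q-high cells, and was higher only in fibroblast-like cells (580 CPM over 3 tumors, 138 to 880 CPM). Over all its cells that class carried the 6 fibroblast markers at a sum of 46334 CPM and the 6 MC38 markers at 2398 CPM, against 1173 and 2624 CPM in MC38-like cells. Chi3l3 and Ifitm6 were highest in neutrophil-like cells (462 and 262 CPM over 5 tumors), then in C1q-low cells (371 and 70.7 CPM). Crip1 was highest in DC-like cells at 1038 CPM, with 302 CPM in C1q-low cells.

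**Figure D1:**
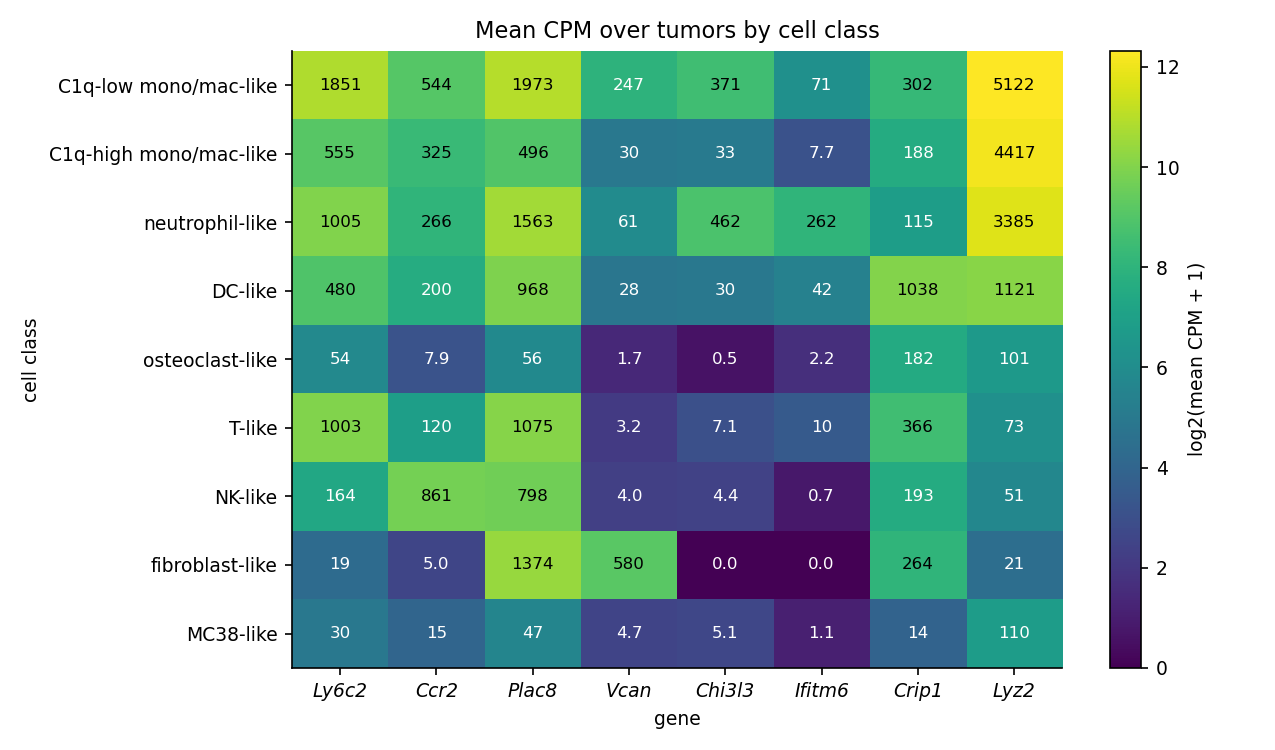
Mean CPM of each of the 8 genes (columns) in each gated class (rows), over tumors in which the class had at least 10 cells, with the color on a log2(mean CPM + 1) scale. Lyz2 is above 1000 CPM in C1q-low, C1q-high, neutrophil-like and DC-like cells, Ccr2 is highest in NK-like cells, and Vcan, Chi3l3 and Ifitm6 are far higher in C1q-low than in C1q-high cells.

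Within a tumor, the C1q-low level over the C1q-high level had a median of 12.2 for Ifitm6, 11.2 for Vcan and 11.2 for Chi3l3, and all 8 tumors were higher in C1q-low cells. For Plac8 the median was 3.39 and for Ly6c2 3.22, and for Ccr2 the ratio ran from 1.18 to 2.88, again with 8 of 8 tumors higher. Crip1 had a median of 1.67 with 7 of 8 tumors higher, and Lyz2 1.22 with 5 of 8. Lyz2 thus marked C1q-low and C1q-high cells.

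The genes whose level across the 9 separate classes was most like that of each member, among 7083 genes at 50 CPM or more in at least 1 class, are given by Pearson's r of log2(CPM + 1), as a description over 9 points that share their tumors. Lyz2 was followed closely by Fcgr2b (0.995), Clec4a1 (0.994) and Adap2 (0.994), Ifitm6 by 1810033B17Rik (0.980), and Chi3l3 by F10 (0.977), Mmp8 (0.972) and Trem1 (0.966). Vcan was most like Serpinb2 (0.964), Ace (0.937) and Hp (0.936), Ly6c2 like Itpkb (0.962), Plac8 like Mndal (0.958), Ccr2 like Pecam1 (0.958) and Crip1 like H2-Q6 (0.928).

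The main comparison asks how the 8 genes in C1q-low cells differed between treatments. All 8 were lower after medium R848-BPDs than after free R848, by 2.77 to 4.48 times, and lower than after saline, by 2.20 to 5.55 times. C1q-low cells made up 25.4% and 24.2% of monocyte/macrophage-like cells, in the medium R848-BPD tumors, against 27.9%, 21.9% and 37.8% in the free R848 tumors, and the groups overlapped (exact two-sided permutation test, p = 0.6). The median mitochondrial share of UMIs in C1q-low cells, a sign of RNA quality, was 3.79% and 4.17% in the medium R848-BPD tumors, below the 4.87% to 6.02% of the free R848 tumors and the 4.35% to 4.94% of the saline tumors, and its part in the fall of the 8 genes was not tested. In these summed counts, fewer cells with a transcript and fewer transcripts per cell cannot be told apart.

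Ccr2 stood at 624, 729.7 and 501 CPM in the 3 free R848 tumors, at 171 and 197 CPM in the 2 medium R848-BPD tumors and at 826, 665 and 639 CPM in the 3 saline tumors. Both medium R848-BPD tumors were below all others, and free R848 overlapped saline. The level after medium R848-BPDs was 3.26 times lower than after free R848 (log2 fold change −1.70 ± 0.22 SE, edgeR adjusted p = 0.00038) and 3.98 times lower than after saline (−1.99 ± 0.22, edgeR adjusted p = 5.62e-05).

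Ly6c2 stood at 3013, 2442 and 2335 CPM in the free R848 tumors, at 917 and 768 CPM in the medium R848-BPD tumors and at 2291, 1057 and 1984 CPM in the saline tumors. Every free R848 tumor was above every saline tumor, and both medium R848-BPD tumors were below every saline tumor. Ly6c2 was 2.99 times lower after medium R848-BPDs than after free R848 (−1.58 ± 0.30, edgeR adjusted p = 0.0073) and 2.20 times lower than after saline (−1.14 ± 0.30, edgeR adjusted p = 0.0241). Of the 8 genes it had the smallest fall against saline.

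Plac8 was at 2981, 2104 and 2597 CPM after free R848, at 780.5 and 800.4 CPM after medium R848-BPDs and at 2513, 1628 and 2381 CPM after saline. Lyz2 was at 6691, 4668 and 6111 CPM, at 1797 and 2039 CPM, and at 8165, 5370.0 and 6134 CPM in the same order. For both genes the medium R848-BPD tumors lay close together and the other 6 tumors were at least 2 times as high. Plac8 fell 3.16-fold against free R848 (−1.66 ± 0.25, edgeR adjusted p = 0.0015) and Lyz2 2.96-fold (−1.57 ± 0.25, edgeR adjusted p = 0.0022). Against saline the falls were 2.85-fold for Plac8 and 3.52-fold for Lyz2.

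Chi3l3 was at 749, 364 and 565 CPM after free R848, at 146 and 93.9 CPM after medium R848-BPDs and at 512, 236 and 303 CPM after saline. Its fall against free R848 was the largest of the 8, 4.48-fold (−2.16 ± 0.38, edgeR adjusted p = 0.0047), and against saline it fell 3.02-fold (−1.60 ± 0.38, edgeR adjusted p = 0.0151). Vcan was at 347, 150.04 and 210.4 CPM after free R848, at 73.0 and 69.5 CPM after medium R848-BPDs and at 488, 194 and 441 CPM after saline. The order of the groups for Vcan was saline, free R848, medium R848-BPD, with free R848 and saline overlapping. Vcan had the largest fall against saline, 5.55-fold (−2.47 ± 0.43, edgeR adjusted p = 0.0021), and fell 3.22-fold against free R848 (−1.69 ± 0.43, edgeR adjusted p = 0.0364).

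Crip1 was at 275, 291 and 338 CPM after free R848, at 89.2 and 126 CPM after medium R848-BPDs and at 485, 357 and 454 CPM after saline. It had the 3 groups in separate ranges, and fell 2.77-fold against free R848 (−1.47 ± 0.25, edgeR adjusted p = 0.00325) and 4.23-fold against saline (−2.08 ± 0.25, edgeR adjusted p = 0.00011). Ifitm6, the gene with the fewest UMIs, was at 129, 39.8 and 111 CPM, at 26.4 and 28.2 CPM, and at 75.6, 69.1 and 86.7 CPM in the same order. The second free R848 tumor was below all saline tumors. Ifitm6 fell 3.40-fold against free R848 (−1.76 ± 0.43, edgeR adjusted p = 0.0294) and 2.97-fold against saline (−1.57 ± 0.43, edgeR adjusted p = 0.0313).

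**Figure D2:**
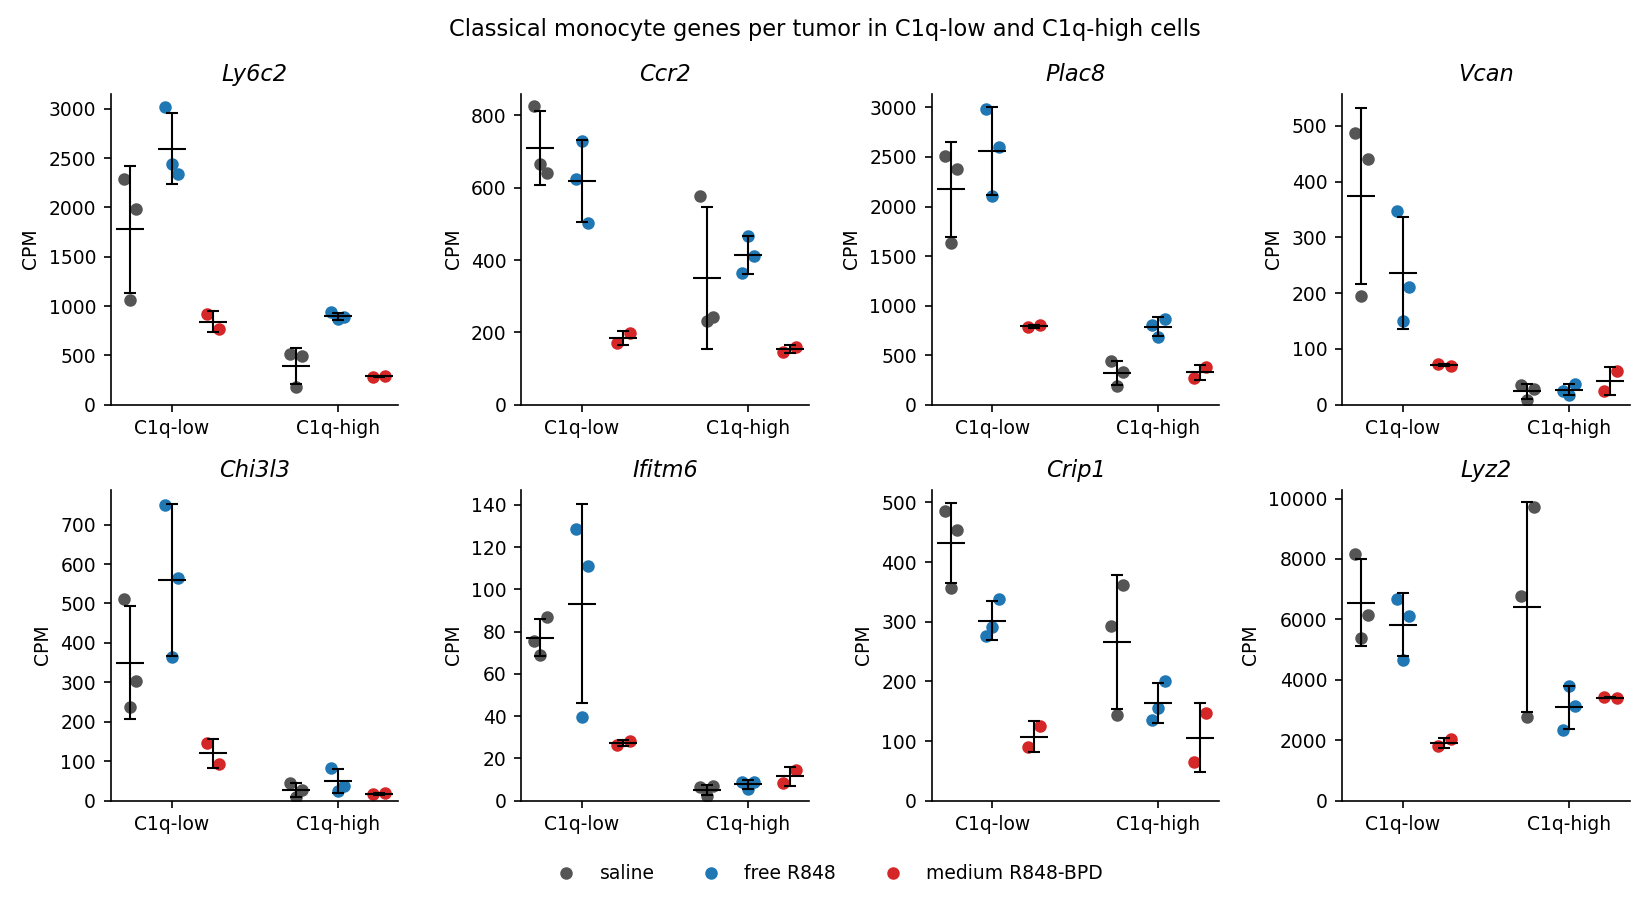
CPM of each of the 8 genes in every tumor (points) after saline, free R848 and medium R848-BPDs. Each panel has C1q-low cells on the left and C1q-high cells on the right. Bars are means and error bars ± SD over tumors. In C1q-low cells of all 8 panels, the 2 medium R848-BPD tumors lie below the lowest tumor of both other groups. This does not hold for every gene in C1q-high cells.

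In counts, 8 of 8 genes were called lower after medium R848-BPDs than after free R848, where 186 of 8222 genes tested were called lower (2.26%). Against saline 8 of 8 were called lower, where 560 were (6.81%). The 8 genes were chosen with earlier results of these data known, so setting them beside all genes is a description. The median log2 fold change of the 8 was −1.67 and −1.71, and that of all genes tested 0.00049 and 0.0035. All 8 also had both medium R848-BPD tumors below every tumor of the other group, as had 21.0% and 19.6% of all genes. The 2 comparisons share the medium R848-BPD tumors. Calls rested on the 2 medium R848-BPD tumors: against free R848, 3 of 8 were called with replicate 1 left out, where 1.67% of all genes were, and 4 with replicate 2 left out, where 1.3% were. Against saline 5 were called without either, where 3.42% and 3.97% of all genes were, and all 8 without saline replicate 2, where 14.0% were. Ccr2 and Plac8 were called against both groups in each of the 15 alternatives tried, and Vcan, Crip1 and Lyz2 against saline in each.

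Between free R848 and saline none of the 8 was called, where 16 of 8222 genes were (0.195%), and the lowest adjusted p was 0.238 (edgeR). The median log2 fold change was −0.051, with 4 genes above 0 and 4 below. At an unadjusted p under 0.05 were 2 genes, where 11.9% of all genes were: Vcan (−0.78 ± 0.33) and Crip1 (−0.61 ± 0.20), both lower after free R848. These 2 were called when saline replicate 2 was left out, where 2.09% of all genes were.

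Markers of the gated classes were also read in C1q-low cells, where 15.6% of all genes tested were higher and 21.0% lower without overlap after medium R848-BPDs than after free R848. Of the 5 osteoclast markers, Acp5 (614 to 676 CPM after medium R848-BPDs, 173 to 276 CPM after free R848) and Ctsk (78.0 to 103 CPM, 21.3 to 44.9 CPM) were higher without overlap, whereas Mmp9, Ocstamp and Atp6v0d2 were at or below 20.3 CPM in all 5 tumors. Their sum was 733 to 785 CPM after medium R848-BPDs, 239 to 358 CPM after free R848 and 63.3 to 263 CPM after saline. Of the 12 myeloid gate markers 6 were lower without overlap after medium R848-BPDs than after free R848. The 3 C1q genes were all higher without overlap, below the cut, and of the 6 neutrophil markers 1 was higher (S100a8, 56.8 to 75.2 CPM against 6.41 to 27.2 CPM) and 1 lower. Of the 6 mature DC markers 3 were higher without overlap, with Ccr7 at 71.0 to 107 CPM against 7.27 to 69.7 CPM, and of the 8 NK markers 1 was, Gzma, at 139 to 297 CPM against 8.27 to 46.7 CPM. Of the 6 fibroblast markers 2 were higher, both below 10 CPM, and the cDC1, general DC, B and MC38 lists each had 1 gene lower. Lists with 1 gene on a side are near these shares of all genes. The part of these differences in the fall of the 8 genes was not tested.

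In C1q-high cells the 8 genes did not move as 1 group, and none was called in any of the 3 comparisons. At an unadjusted p under 0.05 in edgeR were 4, 3 and 3 of the 8 for medium R848-BPDs against free R848, free R848 against saline and medium R848-BPDs against saline, where 14.1%, 13.6% and 25.6% of all 10362 genes were. At the adjusted threshold 1.39%, 0.0% and 7.89% of genes were called. DESeq2 called 3, 2 and 2 of the 8, and 3.07%, 1.29% and 9.11% of all genes. Without saline replicate 2, edgeR called 3, 3 and 4 of the 8, where 3.65%, 1.18% and 9.58% of all genes were called.

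Ly6c2 in C1q-high cells was at 935, 865 and 886 CPM after free R848, at 284 and 288 CPM after medium R848-BPDs and at 509, 183 and 490.1 CPM after saline. All free R848 tumors were the highest, and medium R848-BPD lay within the range of saline. The log2 fold change against free R848 was −1.59 ± 0.38 (edgeR adjusted p = 0.0914), the same size as in C1q-low cells, and free R848 was 1.21 ± 0.33 above saline (edgeR adjusted p = 0.181).

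Plac8 had the same order, with 807, 682 and 868 CPM after free R848, 273 and 376 CPM after medium R848-BPDs and 437, 192 and 332 CPM after saline. Its log2 fold change was −1.22 ± 0.33 for medium R848-BPDs against free R848 (edgeR adjusted p = 0.128) and 1.32 ± 0.29 for free R848 against saline (edgeR adjusted p = 0.152). Ccr2 was at 364, 467 and 412 CPM, at 145 and 160.5 CPM, and at 578, 231 and 241 CPM after free R848, medium R848-BPDs and saline. The medium R848-BPD tumors were lowest for Ccr2 and the saline tumors spread across the free R848 range.

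Vcan, Ifitm6 and Lyz2 had no lower level after medium R848-BPDs than after free R848 in C1q-high cells. Vcan was at 24.6 and 60.4 CPM against 24.7, 17.7 and 37.5 CPM (log2 fold change 0.74 ± 0.58), Ifitm6 at 8.26 and 14.7 CPM against 8.94, 5.35 and 8.86 CPM (0.61 ± 0.49), and Lyz2 at 3419 and 3391 CPM against 2350.3, 3793 and 3124 CPM (0.19 ± 0.43). For each of these the groups overlapped. Lyz2 was at 6765, 2784 and 9706 CPM after saline, so that saline replicate 2 was the lowest of that group here as for all the other 7 genes.

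Whether the response differed between C1q-low and C1q-high cells was tested within tumors. Between medium R848-BPDs and free R848 it differed for 3 of the 8 genes, where 14 of 9940 genes did (0.141%): the log2 fold change in C1q-low cells minus that in C1q-high cells was −2.23 ± 0.36 for Vcan (edgeR adjusted p = 0.0145), −2.18 ± 0.42 for Ifitm6 (edgeR adjusted p = 0.0448) and −1.77 ± 0.33 for Lyz2 (edgeR adjusted p = 0.0305). With the C1q cut at 0.5 times Vcan was called of these 3, and with the cut at 2 times Ifitm6. The share of all genes called at these other cuts is not given here. For Ly6c2 the same difference was 0.024 ± 0.18 (edgeR adjusted p = 0.995). Against saline 4 genes differed, where 0.966% of all genes did: Vcan, Ifitm6, Plac8 and Ly6c2. Between free R848 and saline Plac8 differed (−1.18 ± 0.17, edgeR adjusted p = 0.0086), where 0.0503% of all genes did. Without saline replicate 2 the same 4 genes were called against saline and Plac8 between free R848 and saline, where 3.09% and 0.509% of all genes were.

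**Figure D3:**
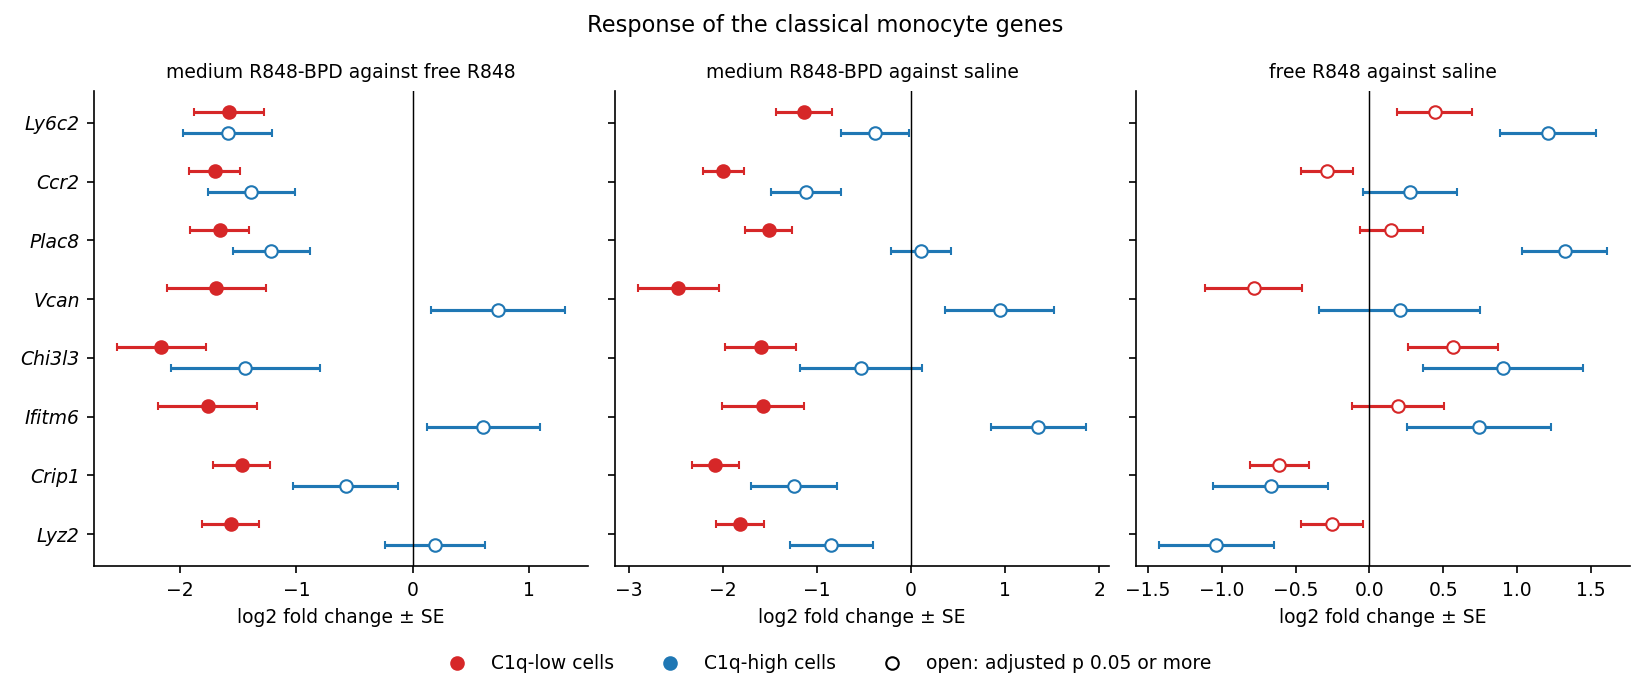
Log2 fold change of each of the 8 genes in C1q-low and C1q-high cells for the 3 comparisons, with error bars for ± SE and filled points for genes called at an adjusted p under 0.05. All 8 genes are called and below 0 in C1q-low cells for both comparisons of medium R848-BPDs, and Vcan, Ifitm6 and Lyz2 are above 0 in C1q-high cells against free R848.

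Over all monocyte/macrophage-like cells, in which C1q-high cells outnumber C1q-low cells, the 8 genes were called once. Ccr2 was at 149 and 167 CPM after medium R848-BPDs and at 659.5, 259 and 373 CPM after saline, and fell 2.66-fold (−1.41 ± 0.36, edgeR adjusted p = 0.0486), where 358 of 10774 genes were called lower (3.32%). This call was lost when only the 2 treatments were fitted, when the same number of cells was taken per tumor, with the replicate number as a block, in cells of up to 8% mitochondrial UMIs and with any tumor other than saline replicate 2 left out. Without saline replicate 2, 7 of the 8 genes were called, and 11.6% of all genes. Against free R848 none was called, where 1.53% of genes were. All 8 log2 fold changes were below 0, 6 genes had both medium R848-BPD tumors lowest (19.4% of all genes had), and 4 had an unadjusted p under 0.05 in edgeR, where 14.3% of all genes had. Without saline replicate 2, which is in neither group but enters that fit through the shared spread and the filter on low counts, 4 of the 8 and 5.31% of all genes were called. Between free R848 and saline none of the 8 was called in edgeR (0.0186% of genes were) or by DESeq2 (70 of 10774 genes were). None reached an unadjusted p under 0.05 in edgeR (12.8% of genes did), and 1 was called without saline replicate 2, where 1.37% of genes were.

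The cells carrying the transcripts were also counted, after each cell was drawn to 1000 UMIs so that depth was equal, which left out 24 monocyte/macrophage-like cells with fewer. Ccr2 was detected in 32.4%, 36.7% and 30.9% of monocyte/macrophage-like cells in the free R848 tumors, in 13.6% and 11.7% in the medium R848-BPD tumors and in 41.4%, 19.5% and 30.2% in the saline tumors. For Ly6c2 the shares were 47.0%, 43.9% and 46.2%, then 23.8% and 23.9%, then 41.2%, 15.4% and 37.0%. The medium R848-BPD tumors were the lowest of all 8 for Ccr2, but for Ly6c2 saline replicate 2 was lower still.

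Mean shares in the medium R848-BPD tumors minus those in the free R848 tumors were −20.7 percentage points for Ccr2 and −21.9 for Ly6c2, each at p = 0.1 in the exact two-sided permutation test, the smallest that 2 against 3 tumors allow. Between these treatments 6 of the 8 genes had all medium R848-BPD tumors lower, as had 15.3% of all genes tested, the exceptions being Vcan (2.86% and 3.95% against 3.33% to 6.55%) and Ifitm6. All medium R848-BPD tumors were below all saline tumors for 3 genes, as for 16.5% of all genes, and all free R848 tumors were below all saline tumors for 1, as for 5.45%. Lyz2 was detected in 65.6% and 67.1% of cells after medium R848-BPDs, in 71.7% to 75.3% after free R848 and in 76.6% to 86.9% after saline.

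Cells with a UMI of both Ly6c2 and Ccr2 made up 21.5%, 19.3% and 16.2% of monocyte/macrophage-like cells in the free R848 tumors, 4.63% and 4.14% in the medium R848-BPD tumors and 19.4%, 5.31% and 17.9% in the saline tumors. The medium R848-BPD tumors were lowest, just below saline replicate 2. The group means were 19.0% ± 2.66 (SD, n = 3), 4.38% ± 0.347 (SD, n = 2) and 14.2% ± 7.75 (SD, n = 3). With all UMIs the mean was 49.9% after free R848 and 36.8% after saline, and the medium R848-BPD tumors were at 19.1% and 20.8%. In MC38-like tumor cells, which should lack both transcripts, the means at 1000 UMIs were 0.113% to 0.683%, at median depths of 10942 to 11415 UMIs against 4883 to 5323 in monocyte/macrophage-like cells.

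This difference was present in C1q-low and in C1q-high cells. In C1q-low cells double-positive cells made up 37.6%, 28.7% and 22.7% in the free R848 tumors and 7.49% and 7.81% in the medium R848-BPD tumors. In C1q-high cells they made up 15.3%, 16.7% and 12.3%, and 3.65% and 2.97%. In each subset the medium R848-BPD tumors were the lowest of all 8.

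**Figure D4:**
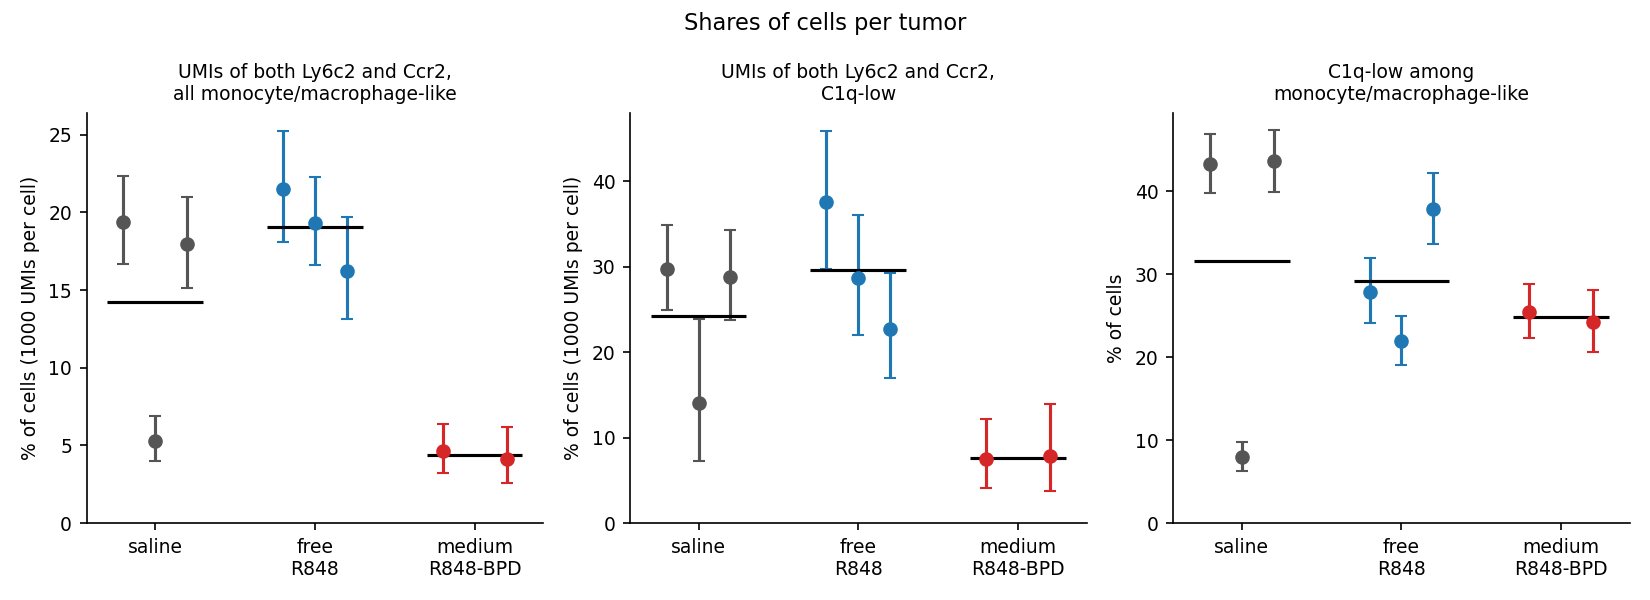
Percentage of cells with at least 1 UMI (1 UMI or more) of both Ly6c2 and Ccr2 after drawing each cell to 1000 UMIs. The left panel has all monocyte/macrophage-like cells and the middle panel C1q-low cells. The right panel has the percentage of monocyte/macrophage-like cells that were C1q-low, from all UMIs. Points are tumors, with 95% exact binomial intervals, which cover counting error only, and lines are group means. Among all monocyte/macrophage-like cells, double-positive cells are at 4.63% and 4.14% after medium R848-BPDs and at 16.2% to 21.5% after free R848.

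DC-like and neutrophil-like cells were fewer. In DC-like cells (42 to 129 per tumor), 2 of the 8 genes were called lower after medium R848-BPDs than after saline, where 4.29% of 6202 genes were. Ccr2 was at 69.2 and 80.4 CPM against 343, 346 and 167 CPM (−1.99 ± 0.40, edgeR adjusted p = 0.0093), and Lyz2 at 273 and 247 CPM against 1509, 2302 and 693 CPM (−2.55 ± 0.74, edgeR adjusted p = 0.0473). The free R848 tumors overlapped saline for both genes, with Ccr2 at 276, 219.9 and 98.5 CPM. The 3 markers of the DC subset cDC2, of which none is among the 8 genes, summed to 22.6 to 60.3 CPM after medium R848-BPDs and 380.1 to 867 CPM after saline, and their part in this result was not tested. No gene was called for medium R848-BPDs against free R848 or for free R848 against saline, where 0.435% and 0.677% of genes were. At an unadjusted p under 0.05 in edgeR were 5 and 1 of the 8, where 9.75% and 14.3% of all genes were. Without saline replicate 2 the count against saline was again 2, where 10.7% of genes were called, and that against free R848 was 1, where 1.04% were.

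In neutrophil-like cells, tested in 5 tumors with 11 to 30 cells each and only 1 of them from saline, Chi3l3 rose after medium R848-BPDs. It was at 1429 and 535 CPM against 132 and 23.3 CPM after free R848 (log2 fold change 3.97 ± 0.67, edgeR adjusted p = 0.0036, with 0.71% of 2396 genes called higher), and at 189 CPM in the saline tumor. In C1q-low cells the direction was the opposite, and the difference between the 2 classes was not tested. The 6 neutrophil markers summed to 15944 to 22935 CPM after medium R848-BPDs, 11864 to 15855 CPM after free R848 and 5267 CPM in the saline tumor, and their part was not tested. The C1q genes were also present, at 1512 to 5829 CPM. The call was lost without free R848 replicate 3 or saline replicate 3.

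The other genes of monocyte recruitment were read from a list of 27 ligands, receptors and adhesion molecules, of which 22 could be tested. In C1q-low cells 1 rose and 2 fell after medium R848-BPDs against free R848, and 1 rose and 4 fell against saline (4.39% and 11.6% of all genes called in either direction), or 2 and 8 against saline without saline replicate 2. The log2 fold changes had medians of −0.34 and −0.43. The ligands of Ccr2 made in these cells were not among them: Ccl2 was at 729 CPM after medium R848-BPDs and 612 CPM after free R848 (0.29 ± 0.31), Ccl7 differed by 0.093 ± 0.27 and Ccl12 by 0.46 ± 0.30, and neither was called. The receptor Cxcr4, which holds cells in the marrow through Cxcl12, fell 3.02-fold against free R848 (−1.59 ± 0.26, edgeR adjusted p = 0.0023).

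Among adhesion molecules, the integrin subunit Itga4 fell 2.25-fold (−1.17 ± 0.28, edgeR adjusted p = 0.0285) and the subunit Itgam, of the Mac-1 integrin, rose 1.70-fold (0.77 ± 0.19, edgeR adjusted p = 0.0352) against free R848. Against saline Cxcr4, Itga4, Cd44 and Csf1r, the receptor of the growth factor Csf1, fell, and Pecam1 rose (1.54 ± 0.26, edgeR adjusted p = 0.0015). Cd44 is outside the rule by which genes were named and was chosen after its value was seen, and Csf1r is also 1 of the gate markers.

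A list of 20 further genes of classical monocytes was split. Against free R848 3 rose and 3 fell in C1q-low cells, with a median of −0.0027, and against saline 3 rose and 4 fell (4 and 5 without saline replicate 2). Of all genes 4.39%, 11.6% and 14.0% were called in these 3 fits. S100a4, a calcium-binding protein, fell 18.2-fold, from 659 ± 61.3 CPM (SD, n = 3) to 36.3 ± 9.77 CPM (SD, n = 2) (−4.19 ± 0.32, edgeR adjusted p = 6.31e-06). S100a6 fell 3.81-fold and Fn1, fibronectin, 4.48-fold, and Fn1 was also lower after free R848 than after saline (−2.04 ± 0.25, edgeR adjusted p = 0.0072).

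In the other direction, F13a1, the coagulation factor XIII subunit of classical monocytes, rose 2.71-fold, from 335 ± 54.8 to 884 ± 28.4 CPM (1.44 ± 0.26, edgeR adjusted p = 0.0051), and Hp, haptoglobin, rose 3.32-fold (1.73 ± 0.38, edgeR adjusted p = 0.017). The third that rose was Emb, named after its value was seen. The fall of the 8 genes was therefore not shared by all genes of classical monocytes in the same cells.

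Macrophage maturation genes were as mixed. Of 18 tested, 1 rose (Mertk, 1.09 ± 0.24) and 2 fell (Axl, −1.83 ± 0.21, and Itgax, −1.53 ± 0.24) against free R848 in C1q-low cells. Against saline 5 rose (8 without saline replicate 2), among them Gpnmb (2.22 ± 0.55) and Pf4 (1.70 ± 0.40), and Axl and Itgax fell. The shares of all genes called were again 4.39%, 11.6% and, without that tumor, 14.0%. Mertk and Axl, both receptors for the uptake of dead cells, changed in opposite directions.

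Of 6 genes of patrolling (nonclassical) monocytes, 4 fell against both groups in C1q-low cells, also against saline without saline replicate 2. Of all genes 2.26% were called lower against free R848 and 6.81% against saline. Without saline replicate 2, 14.0% were called in either direction against saline. Ace had 0 UMIs in both medium R848-BPD tumors, out of 1518823, which allows up to 1.98 CPM from 3 counts over the group. It had 213 UMIs after free R848 and 182 after saline, so it was at least 41.7-fold and 32.1-fold lower, for counting error only. These limits leave out the spread between tumors. Treml4 fell 4.53-fold, Ear2 15.9-fold and Nr4a1, the regulator these cells need, 2.34-fold against free R848. Spn was at 75.1 and 80.7 CPM (−0.035 ± 0.29), and Cd300e rose against saline (1.10 ± 0.31, edgeR adjusted p = 0.0324) but not past the threshold against free R848 (1.13 ± 0.30, edgeR adjusted p = 0.0513).

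**Figure D5:**
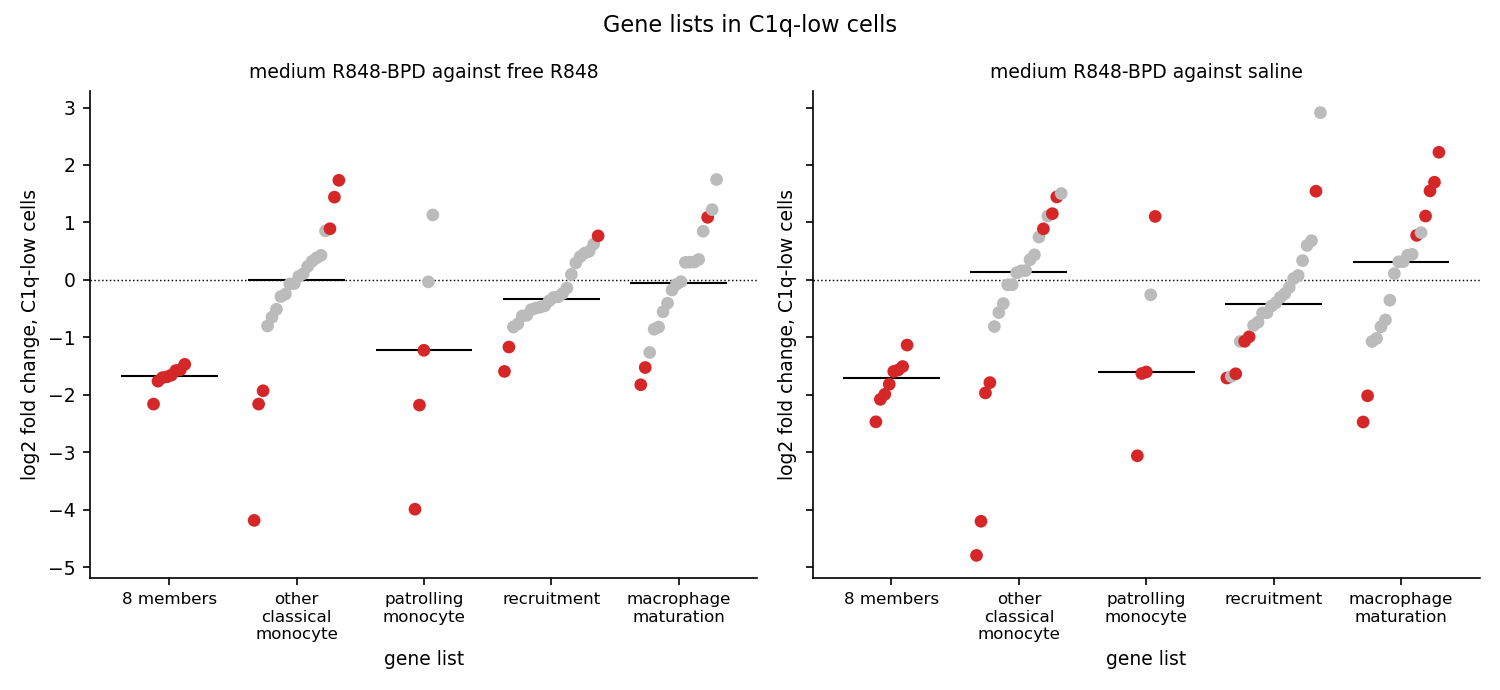
Log2 fold change of medium R848-BPDs against free R848 (left) and against saline (right) in C1q-low cells for the genes of each list that were tested. Each panel has 1 point per gene, with called genes in red and a black line at the median of the genes plotted. Ace is left out because it had 0 UMIs after medium R848-BPDs. In both panels the 8 classical monocyte genes are all called and below −1, whereas the other lists have points on both sides of 0.

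The same 4 lists were read in C1q-high cells, and the difference from C1q-low cells was not tested for them. Against free R848, 2 of 22 recruitment genes rose and 1 fell, 3 of 20 further classical monocyte genes rose and none fell, 1 of 19 maturation genes fell and none of the 6 genes of patrolling monocytes was called, where 1.39% of all genes were called. Hp (3.42 ± 0.31) and Mgst1 (2.84 ± 0.41) rose on the log2 scale after medium R848-BPDs in edgeR, in the cells where Ly6c2, Ccr2 and Plac8 had log2 fold changes of −1.59, −1.39 and −1.22.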

How the data were processed

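For each tumor the authors deposited a table of UMI counts (genes by cell barcodes, not normalized), made from Seq-Well reads aligned to mm10. The submitters' processing notes name bcl2fastq. The aligner, annotation and barcode selection are not given in the sources used here. Replicates are tumors of separate mice. The 8 genes, the other gene lists and the gate markers were chosen with earlier results of these data known.

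Cells were kept at over 400 and under 10000 genes, under 50000 UMIs and up to 15% mitochondrial UMIs, which left 9886 of 10791 barcodes, slightly more than the study kept. Classes were set by the highest marker score. The scoring rule and its thresholds were set after the score distributions were seen. No doublet caller was run, and a stricter gate left out cells with a second lineage score of at least 0.335 times the first. A tumor entered a class with at least 10 cells.

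UMI counts were summed per tumor and class and tested with edgeR 4.0.16 (R 4.3.3, TMM, filterByExpr, quasi-likelihood F test, all tumors in one fit), with Benjamini-Hochberg adjustment over all genes of the class at 0.05. Fold changes use TMM and printed levels are plain CPM. The study compared cells with a Wilcoxon test, and sums per tumor were used here because cells are not replicates. The difference between C1q-low and C1q-high cells was tested as a class by treatment term with the tumor as block. For shares, each cell was drawn to 1000 UMIs with a fixed seed, and tumors were compared with exact two-sided permutation tests in scipy 1.17.1. Of other lists, the genes named are the 8 that changed most in the comparison of medium R848-BPDs with free R848 over all monocyte/macrophage-like cells, plus Ccl2, Ccl7 and Ccl12, and 1 gene the rule named is not reported here. Positions come from GENCODE and promoters from RefSeq (GRCm38.p6). On simulated counts for medium R848-BPDs against free R848 in 8222 genes of C1q-low cells, 51% of genes changed by 1 and 97% of genes changed by 2 on the log2 scale were called. In 10362 genes of C1q-high cells the same shares were 66% and 97%. The 200 changed genes of each class were drawn from genes above a minimum mean CPM, so weaker genes are not covered. Of the unchanged genes, 12 were called in C1q-low and 10 in C1q-high cells. Depth was 5867590 to 12422614 UMIs per tumor, and a share of 0 in n cells allows up to 3 of n, for counting error only. Alternatives tried were DESeq2 1.42.0, RLE size factors, keeping genes of low count, fits of 2 treatments, a replicate block, each tumor left out, a stricter gate, at most 8% mitochondrial UMIs, equal numbers of cells, other C1q cuts and other UMI draws. Leaving out barcodes shared between tumors, and saline replicate 2 from the test of the class by treatment term, were chosen after seeing the data.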

Additional observations from a re-analysis of the deposited data

Results flagged for a closer look

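The response of some genes differed between C1q-low and C1q-high cells of the same tumors by the test of that difference in edgeR, with n = 3 free R848, 2 medium R848-BPD and 3 saline tumors. Values are the log2 fold change in C1q-low cells minus that in C1q-high cells. For medium R848-BPDs against free R848 the difference was −2.23 for Vcan, −2.18 for Ifitm6 and −1.77 for Lyz2, each from a fall in C1q-low cells beside a level that was not lower in C1q-high cells. For medium R848-BPDs against saline it was −3.15 for Vcan, −2.74 for Ifitm6, −1.58 for Plac8 and −0.75 for Ly6c2. For free R848 against saline it was −1.18 for Plac8, whose level was higher after free R848 in C1q-high cells (1.32, edgeR adjusted p = 0.152) and near saline in C1q-low cells (0.15, edgeR adjusted p = 0.840). With the C1q cut at 0.5 or 2 times, 1 of the 3 differences against free R848 was called at either.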

How the results depend on the processing

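In C1q-low cells the count of the 8 genes called was 8 of 8 for medium R848-BPDs against free R848, 3 to 8 with each tumor left out, and 8 of 8 against saline, 5 to 8 with each tumor left out. The lowest counts came without medium R848-BPD replicate 1 (3 and 5) or 2 (4 and 5) and, against saline, without saline replicate 1 (5). Leaving out a medium R848-BPD tumor leaves 1 in that group, assumed to vary like the others. Free R848 against saline gave 0, 0 to 2 with a tumor left out and 1 with no filter on low counts. In C1q-high cells the 3 comparisons gave 0 in edgeR, with 3, 2 and 2 by DESeq2, 6, 5 and 5 with no filter (846, 647 and 1719 of 20040 genes called, against 144, 0 and 818 of 10362), and 0 to 3, 0 to 3 and 0 to 4 with each tumor left out. Over all monocyte/macrophage-like cells, against free R848, DESeq2 gave 1, no filter 7, the 2 treatments alone 4 and tumors left out 0 to 4. Free R848 against saline gave 6 with no filter and 0 to 1 with tumors left out. Against saline 1 was called, 2 by DESeq2, 7 with no filter, 0 with the replicate block, with 2 treatments alone, at 8% mitochondrial UMIs and with equal numbers of cells, and 0 to 7 with tumors left out (7 without saline replicate 2). Without the filter the genes tested over all monocyte/macrophage-like cells rose from 10774 to 21245. Those called rose from 165 to 913 against free R848 and from 2 to 603 for free R848 against saline. For medium R848-BPDs against saline they rose from 751 to 1785, and DESeq2 called 991 of 10774. In C1q-low cells, free R848 against saline gave 250 of 17622 genes called without the filter, where 16 of 8222 were called with it. The cause was not tested.

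The counts of all genes called also moved over 1.5 times with other settings. In all monocyte/macrophage-like cells DESeq2 called 372 and the 2 treatments alone 458 against free R848, where 165 were called, and against saline the 2 treatments alone gave 202, where 751 were called. In C1q-low cells DESeq2 called 609 against saline, where 951 were called, and no filter gave 620 against free R848, where 361 were called. With the replicate block 59 were called over all monocyte/macrophage-like cells and 33 in C1q-high cells against free R848, where 165 and 144 were called, and 395 and 417 against saline, where 751 and 818 were called. With each tumor left out, counts against free R848 ran from 17 to 567 over all monocyte/macrophage-like cells, from 114 to 520 in C1q-low and from 18 to 374 in C1q-high cells, and against saline from 103 to 1237, from 291 to 1135 and from 129 to 981. The lowest came without medium R848-BPD replicate 1 (291) or 2, except 18 without free R848 replicate 3, and the highest without saline replicate 2. In DC-like cells 2 of the 8 genes were called against saline, 1 by DESeq2 or the stricter gate and 0 to 2 with tumors left out, and against free R848 0 to 1. In neutrophil-like cells both comparisons of medium R848-BPDs gave 0 to 1 with tumors left out. Of all genes in DC-like cells, DESeq2 called 408 of 6202 against saline and the stricter gate 600 of 5319, where 593 of 6202 were called. Of the differences between C1q-low and C1q-high cells, 3 against free R848 became 1 with the C1q cut at 0.5 or at 2 times. The 1 between free R848 and saline became 0 at 2 times.

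Same-numbered tumors correlated at −0.237 to 0.198 in their deviations from group means. With means of 2 or 3 tumors, these values cannot tell whether the numbers pair the tumors. With the replicate block 8, 0 and 8 genes were called in C1q-low cells, 0, 0 and 0 in C1q-high cells and 0, 0 and 2 in DC-like cells. Of all genes, 451, 36 and 949 of 8222 were called in C1q-low and 33, 0 and 417 of 10362 in C1q-high cells. In DC-like cells 7, 4 and 445 of 6202 were. In neutrophil-like cells the block could not be fitted. The share of cells with both Ly6c2 and Ccr2 was −14.7 points against free R848 (−7.49 at 500 UMIs, −22.9 at 2000, −30.0 with all UMIs, −16.1 to −13.4 with tumors left out), 4.82 for free R848 against saline (13.1 with all UMIs, 0.369 to 7.41) and −9.84 for medium R848-BPDs against saline (−16.8 with all UMIs, −14.3 to −7.25). The share of C1q-low cells differed by −4.39 points against free R848 (−8.04 to −0.0843), by −2.42 for free R848 against saline (−14.2 to 3.58) and by −6.80 for medium R848-BPDs against saline (−18.6 to −0.811). Genes with all tumors lower in their share of cells were 6 against free R848 (6 to 8), 1 for free R848 against saline (1 to 3, 0 at 500 UMIs) and 3 against saline (3 to 8, with 8 without saline replicate 2).

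Of 1199 values of single genes under an alternative, 1069 kept their direction and side of the threshold, 43 lost and 74 gained a call, and 13 changed sign, none of them called before. Ranges are with each tumor left out. For free R848 against saline, sign changed over all monocyte/macrophage-like cells for Ccr2 (−0.20 to 0.54) and Ifitm6 (−0.14 to 0.79), negative without saline replicate 2. In C1q-low cells it changed for Plac8 (−0.061 to 0.30, negative without saline replicate 2) and Ifitm6 (−0.080 to 0.56, negative without free R848 replicate 1). In C1q-high cells it changed for Vcan against free R848 (−0.090 to 1.32) and, for free R848 against saline, for Vcan (−0.29 to 0.66, with −0.14 without free R848 replicate 3 and −0.12 at the C1q cut of 2 times). For medium R848-BPDs against saline it changed for Plac8 (−0.20 to 0.39, with −0.17 when saline replicate 2 was left out) and Chi3l3 (−1.03 to 0.077). At the cut of 2 times the difference between C1q-low and C1q-high cells changed sign for Ly6c2 against free R848 (−0.073) and for Chi3l3 between free R848 and saline (0.15).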
